A study of Mus musculus with 12 samples.

Results

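The cholesterol and fatty acid synthesis genes described here are 30 genes named by symbol: the regulators Srebf1, Srebf2 and Insig1, 19 genes of sterol synthesis and handling, and 8 genes of fatty acid synthesis. The rule that names them is their function, and they were chosen with earlier results of these data known. Of these, 29 were found in both deposited count tables, which each list 37287 gene IDs, so that the sterol arm holds 18 genes, the fatty acid arm 8 and the regulators 3. Hmgcs1 was not matched to an ID and is not analysed here. All 29 passed the filter of at least 1 count per M counts of the library (CPM; M, mega) in at least 2 libraries, in every fit, and none owed its place to a group in which it was high.

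Srebf2 and Srebf1 encode SREBP-2 and SREBP-1, transcription factors made as membrane proteins of the endoplasmic reticulum. When membrane sterol is low they are carried to the Golgi, cut, and enter the nucleus, where SREBP-2 favours genes of cholesterol synthesis and SREBP-1 genes of fatty acid synthesis. INSIG1 holds the precursor back when sterol is high, and Insig1 is itself an SREBP target, so its transcript is commonly read beside the pathway it controls. Fibroblasts make their own cholesterol and fatty acids, and draw on this machinery most when serum lipids are scarce.

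All 12 libraries came from mouse embryonic fibroblasts labelled MyoD-/-; Myf5-/-, a mutant of the genes of both early muscle-determining factors, so the controls carry the same deletions. The cells received lentivirus in medium with polybrene, were moved to a differentiation medium listing insulin, transferrin and horse serum, and were harvested 20 h after that change. Poly(A) RNA of 1 library each was sequenced from 1x Chimera and from 1x MyoD of a second virus batch (labelled as balanced against Chimera), which share a count table of their own. The other table holds MyoD at 1x and 2x dose, Myf5 at 1x and 2x dose, untransduced cells, a GFP virus at a multiplicity of infection (MOI) of 15, 30, 60 and 120, and GFP at 1x. The makeup of the Chimera protein, the promoter of the viruses and the relation of 1x to the MOI series are not stated in the sources used. In the table with the MOI series, the labels name no repeat culture at the same dose. A group's spread there holds its doses, and p-values measure the spread between the libraries of that table. MyoD at 1x occurs again only from the second virus batch, in the table with Chimera. The study set MyoD beside Myf5 as regulators of muscle specification and differentiation, and GFP is its virus control.

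The libraries of the MOI series held 17.9 to 22.4 M counts with no order by MOI, the 6 remaining libraries of that file 68.3 to 81.5 M, Chimera 25.1 M and second-batch MyoD 23.7 M. As a check of the labels, Myod1 reached 309 and 617 CPM with MyoD (1x and 2x) and Myf5 149.5 and 249 CPM with Myf5 (1x and 2x), against 5.62 CPM of Myod1 and 17.3 CPM of Myf5 in 1x GFP. In the other table Myod1 was at 22.1 CPM in Chimera, against 324 CPM in second-batch MyoD, and Myf5 at 165 CPM in Chimera, against 14.7 CPM in second-batch MyoD. All 8 fibroblast markers written were present in every library, with a summed level of 10584 to 20527 CPM. Of 8 adipocyte markers 4 to 6 were at 0 in each library (summed level 1.28 to 5.999 CPM), with Adipoq at 0 in 10 of the 12 libraries and Plin1 in 11. Macrophage and hepatocyte markers summed to 11.0 to 17.8 CPM and 0.182 to 2.43 CPM. In these bulk samples fewer cells of a type and less RNA per cell cannot be told apart.

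The 250 bases before the transcription start are shown for 5 genes. Insig1 is a regulator, and Tm7sf2, Mvd, Idi1 and Fasn are named below for their slopes on MOI. Elovl6, named there too, is not shown. Its window holds 0 CCAAT and 0 GGGCGG, so the 5 genes do not stand for all members. NF-Y and Sp1, whose boxes are marked, are known partners of SREBP at promoters. Promoter windows came from RefSeq on GRCm38.p6, and 22 of the 29 genes had an entry, with 27 windows in all. Capitals mark CCAAT (the box of NF-Y) and GGGCGG (the box of Sp1), each on either strand, so that ATTGG and CCGCCC are the same boxes on the opposite strand. Each sequence reads 5′ to 3′ on the strand of the gene. Insig1 lies at chr5:28071162-28071411 on the plus strand, Tm7sf2 at chr19:6067851-6068100 on the minus strand, Mvd at chr8:122443423-122443672 on the minus strand, Idi1 at chr13:8885356-8885605 on the plus strand and Fasn at chr11:120824548-120824797 on the minus strand.
Insig1: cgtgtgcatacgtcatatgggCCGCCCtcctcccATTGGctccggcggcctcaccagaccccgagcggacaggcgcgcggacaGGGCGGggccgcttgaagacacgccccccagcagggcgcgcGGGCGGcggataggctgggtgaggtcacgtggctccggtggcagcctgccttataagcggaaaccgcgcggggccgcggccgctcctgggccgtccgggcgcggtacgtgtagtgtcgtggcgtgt
Tm7sf2: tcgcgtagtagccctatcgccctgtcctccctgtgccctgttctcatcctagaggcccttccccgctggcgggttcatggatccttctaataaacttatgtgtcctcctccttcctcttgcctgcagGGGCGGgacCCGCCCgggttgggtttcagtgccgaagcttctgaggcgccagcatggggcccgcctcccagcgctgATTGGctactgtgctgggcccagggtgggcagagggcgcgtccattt
Mvd: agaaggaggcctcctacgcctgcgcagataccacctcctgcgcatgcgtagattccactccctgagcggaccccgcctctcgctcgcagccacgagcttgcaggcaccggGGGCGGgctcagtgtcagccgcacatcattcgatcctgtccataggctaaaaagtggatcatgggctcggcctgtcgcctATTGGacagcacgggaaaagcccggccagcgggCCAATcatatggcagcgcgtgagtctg
Idi1: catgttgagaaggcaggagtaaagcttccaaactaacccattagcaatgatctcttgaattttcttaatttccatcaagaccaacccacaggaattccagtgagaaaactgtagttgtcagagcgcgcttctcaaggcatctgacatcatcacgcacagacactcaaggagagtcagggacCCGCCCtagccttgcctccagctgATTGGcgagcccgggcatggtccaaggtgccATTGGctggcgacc
Fasn: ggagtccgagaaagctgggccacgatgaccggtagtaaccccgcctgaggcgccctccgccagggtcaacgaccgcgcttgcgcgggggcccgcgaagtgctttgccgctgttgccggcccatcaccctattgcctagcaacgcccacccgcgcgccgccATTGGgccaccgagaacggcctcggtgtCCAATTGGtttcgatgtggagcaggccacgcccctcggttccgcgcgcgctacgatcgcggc
The windows of Insig1, Tm7sf2, Mvd and Idi1 hold both boxes, whereas that of Fasn holds 3 CCAAT boxes, 2 of them overlapping in opposite directions, and no GGGCGG.

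Over windows that also include 50 bases after the start, CCAAT was found in 19 of the 27 windows (70.4%), against 37.4% of all 32851 RefSeq promoter windows of the same length. GGGCGG was found in 20 of 27 (74.1%), against 35.7% of all, and both together in 16 of 27 (59.3%), against 12.8% of all. By gene, CCAAT was present in 18 of the 22 genes with an entry, namely 13 sterol genes, 2 fatty acid genes and all 3 regulators. The genes with an entry and no CCAAT were Acat2 of the sterol arm and Acaca, Elovl6 and Fads2 of the fatty acid arm. The CCAAT of Acly lies after the start. The classic sterol regulatory element, searched as TCACNCCAC on both strands, was in none of the 27 windows and in 1.24% of all, and no match says only that these letters are not in this window. CAGCTG, a form of the E-box that MyoD and Myf5 bind, was in the windows of Dhcr7, Idi1 and Msmo1 (11.1% of the windows, against 16.3% of all). These matches are descriptions of letters, not of bound sites. No 2 different motifs overlapped in these windows.

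Among the 29 genes, levels per kilobase of annotated exon in 1x GFP ran from 17.1 CPM per kb for Acaca, acetyl-CoA carboxylase, to 871 CPM per kb for Scd2, a stearoyl-CoA desaturase that puts the first double bond into saturated fatty acids. Acat2 (279), Acly (209.9) and Idi1 (200.2), in the same unit, followed Scd2. Exons of 5 genes share bases with another coding gene, namely Fdps with Gm43738 (26.7% of its exon length), Fdft1 with Ctsb (18.3%), Tm7sf2 with Vps51 (12.1%), and Cyp51 and Srebf1 by less than 4%. Gm43738 and Vps51 lie on the same strand as the member, so counting by strand would not separate their reads. Ctsb and the genes that overlap Cyp51 and Srebf1 lie on the opposite strand. Whether reads were counted by strand is not given. The levels of all 5 genes are less certain, here and below.

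The regulators did not share a pattern over the libraries. Srebf2 (ENSMUSG00000022463.6) stood at 633 and 647 CPM with MyoD (1x and 2x), 533 and 501 CPM with Myf5 (1x and 2x), 485 CPM without virus, 451, 448, 431 and 374 CPM at MOI 15, 30, 60 and 120, and 524 CPM in 1x GFP. The MyoD libraries were the highest of that table and the MOI 120 library the lowest. Insig1 (ENSMUSG00000045294.9) stood at 514 and 597 CPM with MyoD (1x and 2x), 417 and 432 CPM with Myf5 (1x and 2x), 348 CPM without virus, 359, 329, 320.4 and 258 CPM along the MOI series, and 395 CPM in 1x GFP. Its order was alike at both ends, with MyoD on top and MOI 120 at the bottom. Srebf1 (ENSMUSG00000020538.8) stood at 123 and 110.3 CPM with MyoD (1x and 2x), 127 and 117 CPM with Myf5 (1x and 2x), 131 CPM without virus, 123, 121, 119.9 and 109 CPM along the MOI series, and 137 CPM in 1x GFP. Here 1x GFP was the highest and the MyoD libraries lay within the range of the others. In the other table Srebf2 stood at 370.0 CPM in Chimera and 533 CPM in second-batch MyoD, Insig1 at 182 and 434 CPM, and Srebf1 at 66.0 and 106 CPM, in the same order.

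**Figure D1:**
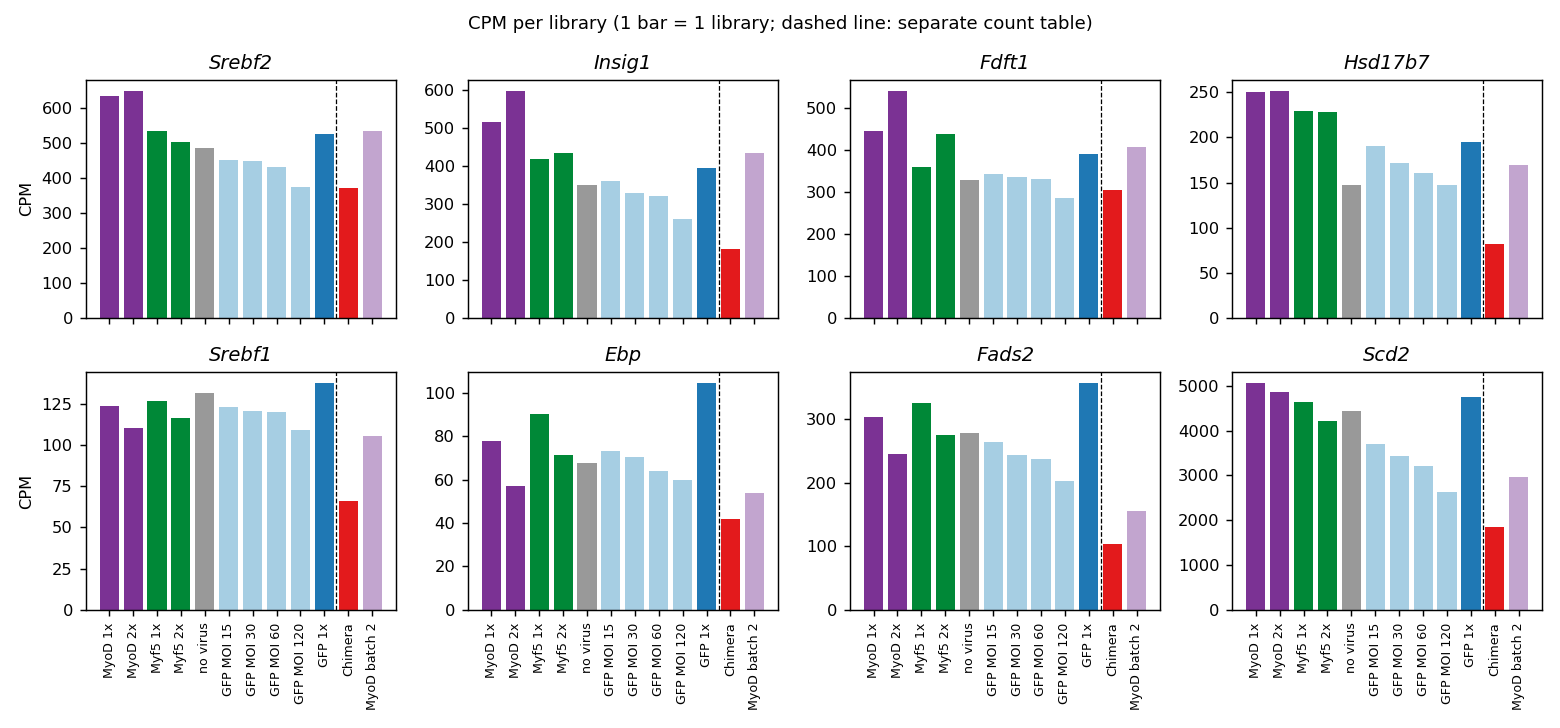
CPM (vertical axes, from 0) of 8 genes in the 12 libraries, 1 bar per library; the dashed line separates the 2 count tables, which were made separately. Srebf2, Insig1, Fdft1 and Hsd17b7 were highest with MyoD in the first table, Ebp and Fads2 were highest in 1x GFP, and all 8 were lower in Chimera than in second-batch MyoD.

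Along the MOI series of the GFP virus, transcripts of both arms fell from MOI 15 to MOI 120. All 18 sterol genes and all 8 fatty acid genes had a negative slope on log2 MOI that passed the test, as did Srebf2 and Insig1, so that 28 of 29 fell and none rose (edgeR quasi-likelihood test, Benjamini-Hochberg adjusted p under 0.05). Over all 13383 genes tested, 3.42% were called lower and 4.06% higher. The CPM of all 29 genes was lower at each step of MOI than at the step before, as was that of 9.27% of all genes. At MOI 120 the genes stood at 63.9% to 89.1% of their MOI 15 level (median 73.0%), while the median over all genes was 99.5%. Untransduced cells were not part of this fit and did not extend the series upward in both arms. Their summed sterol level was 5571 CPM, against 6256 CPM at MOI 15 and 4577 CPM at MOI 120. Their summed fatty acid level was 8672 CPM, against 8088 CPM at MOI 15 and 5894 CPM at MOI 120. The untransduced library held 72.7 M counts, against 17.9 to 22.4 M in the MOI series. The parts of virus and depth in these differences cannot be told apart.

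Among sterol genes, which make cholesterol from acetyl-CoA through mevalonate, isoprenoids and lanosterol, the smallest p-values were those of Tm7sf2, Mvd and Idi1. Tm7sf2 (ENSMUSG00000024799.7), a sterol reductase that acts after lanosterol, stood at 158, 137, 124 and 101 CPM at MOI 15, 30, 60 and 120, a slope of -0.21 ± 0.02 (SE, adjusted p = 1.9e-06) in log2 units per doubling of MOI. Mvd (ENSMUSG00000006517.4), which makes isopentenyl diphosphate from phosphorylated mevalonate, stood at 366, 317, 300.0 and 246 CPM, a slope of -0.18 ± 0.02 (SE, adjusted p = 5.8e-06). Idi1 (ENSMUSG00000058258.6), the isomerase of isopentenyl diphosphate, stood at 701, 642, 586 and 507 CPM, a slope of -0.15 ± 0.02 (SE, adjusted p = 6.9e-06). Within the series each of these genes was highest at MOI 15 and lowest at MOI 120. Without virus Tm7sf2 (81.8 CPM) and Mvd (239 CPM) lay below their MOI 120 levels. Idi1 without virus (679 CPM) lay between its MOI 15 and MOI 30 levels. The difference in depth given above bears on these genes too. The early mevalonate kinases Mvk (-0.18) and Pmvk (-0.18) and Stard4, a carrier of cholesterol between membranes (-0.17), had slopes near that of Mvd. The shallowest sterol slopes were those of Fdft1, squalene synthase (-0.08), the sterol desaturase Sc5d (-0.10), the sterol isomerase Ebp (-0.10) and Lss, lanosterol synthase (-0.10). The median slope of the sterol arm was -0.15.

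In the fatty acid arm Fasn and Elovl6 had the smallest p-values. Fasn (ENSMUSG00000025153.8), fatty acid synthase, stood at 1142, 1051, 967 and 772 CPM along the series, a slope of -0.18 ± 0.02 (SE, adjusted p = 9.1e-06). Elovl6 (ENSMUSG00000041220.6), which lengthens palmitate, stood at 290.0, 267, 246 and 204 CPM, a slope of -0.16 ± 0.02 (SE, adjusted p = 2.0e-05). Scd2 (-0.15), Acly, which supplies cytosolic acetyl-CoA from citrate (-0.14), Scd1 (-0.13) and the desaturase Fads2 (-0.12) lay between these and the shallowest, Acaca (-0.08) and Fads1 (-0.08). The arm's median slope was -0.14, its MOI 120 levels were 67.6% to 84.7% of those at MOI 15, and the sterol arm's were 63.9% to 83.2%. The median slope over all genes was -0.0002. Without the MOI 120 library the median slopes were -0.09 in the fatty acid arm and -0.11 in the sterol arm. Whether the arms differ in slope was not tested, and their ranges overlap.

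Insig1 had a slope of -0.14 ± 0.02 (SE, adjusted p = 2.5e-04) and Srebf2 of -0.09 ± 0.02 (SE, adjusted p = 0.00997), whereas Srebf1 had -0.05 ± 0.02 (SE, adjusted p = 0.159). Of 32 other lipid pathway genes tested, 7 fell and 5 rose. Acss2, which makes cytosolic acetyl-CoA from acetate, stood at 117, 106, 100.3 and 75.2 CPM (slope -0.19 ± 0.03 (SE, adjusted p = 7.8e-05)), and Lpcat3, a phospholipid acyltransferase, stood at 136, 128, 122 and 97.2 CPM (slope -0.15 ± 0.02 (SE, adjusted p = 5.1e-04)). Both were lower at each step, and Mid1ip1, Lpin1, Elovl5, Me1 and Fabp5 were the other genes that fell. Those that rose were Abca1, the cholesterol exporter (0.11), Soat1, which esterifies cholesterol (0.11), Insig2 (0.08), Npc2 (0.10) and Prkaa1 (0.08). The parts of the SREBP machinery other than the members, Scap, Mbtps1 and Mbtps2, did not pass, at 0.04, 0.02 and 0.04.

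Interferon-stimulated genes rose along the same series. All 8 written passed, with slopes of 0.30 to 1.01, and their summed level was 1392, 2022, 2270 and 3596 CPM at MOI 15, 30, 60 and 120, against 219 CPM in 1x GFP and 157 CPM in untransduced cells. Ch25h, an interferon-inducible enzyme whose oxysterol product blocks SREBP processing, stood at 11.5, 10.7, 11.2 and 12.9 CPM, a slope of 0.06 ± 0.05 (SE, adjusted p = 0.57). The part of the interferon response in the fall of the lipid genes was not tested. Of 8 fibroblast markers 2 fell and none rose, and their summed level was 20527, 20388, 19539 and 19418 CPM. The MOI fit has 2 residual degrees of freedom. Without the MOI 120 library 18 of the 28 genes were still called (0.85% of all genes were called lower), 12 in the sterol arm and 6 in the fatty acid arm, among them Tm7sf2 (slope -0.17), Mvd (-0.14), Idi1 (-0.13), Fasn (-0.12) and Elovl6 (-0.12). The genes no longer called were Srebf2, Insig1, Fdft1, Sqle, Lss, Ebp, Sc5d, Dhcr7, Acaca and Fads2. Srebf2 then had a slope of -0.03 and Insig1 of -0.08, and all 29 slopes were negative.

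**Figure D2:**
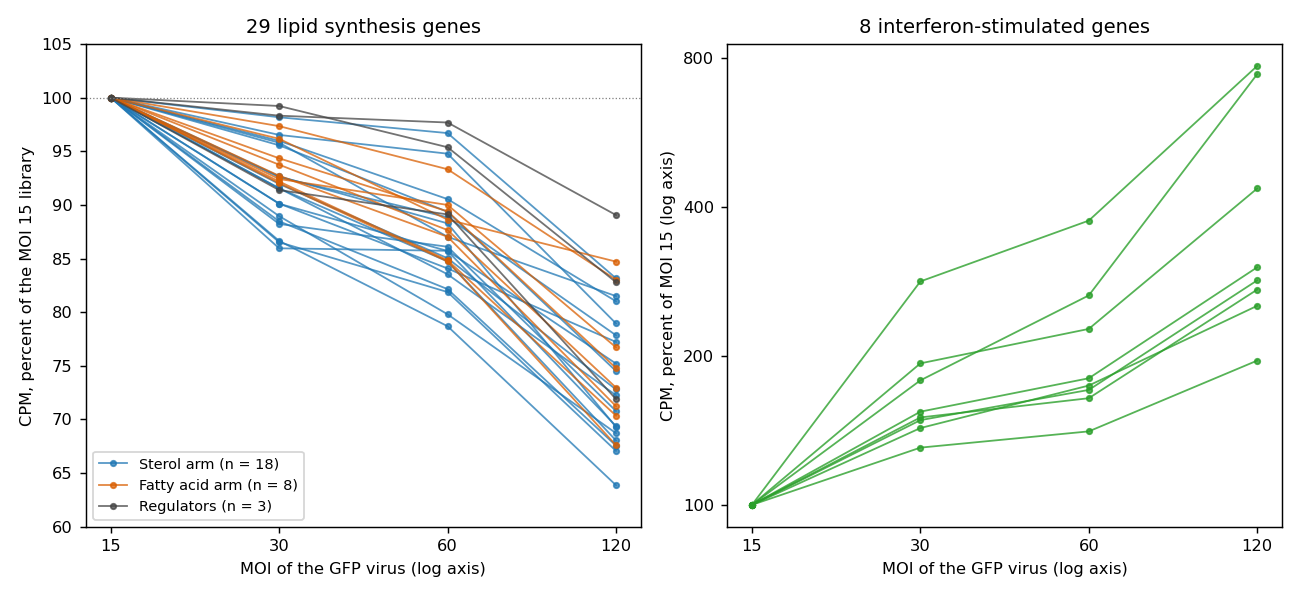
CPM in the 4 GFP libraries as a percent of the MOI 15 library, against MOI on a log axis, 1 line per gene; left, the 18 sterol genes, 8 fatty acid genes and 3 regulators, and right, 8 interferon-stimulated genes on a log axis. All 29 lines on the left end between 63.9% and 89.1% at MOI 120, and all 8 lines on the right end above their start.

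The MOI libraries were also set against 1x GFP, to see how far the choice of GFP control bears on the lipid genes. In the 4 MOI libraries 9 of 29 genes were lower than in 1x GFP, 2 regulators, 3 sterol genes and 4 fatty acid genes, and none was higher, while 12.2% of all 13825 genes were called lower and 12.1% higher. Ebp (ENSMUSG00000031168.8), which moves a double bond within the sterol rings, stood at 73.3, 70.2, 63.8 and 59.7 CPM, against 104 CPM in 1x GFP (log2 fold change -0.70 ± 0.17 (SE, adjusted p = 0.0197)). Acat2, the cytosolic thiolase that condenses acetyl-CoA, stood at 575, 518, 493 and 399 CPM, against 711 CPM in 1x GFP (-0.57 ± 0.17 (SE, adjusted p = 0.0423)). Fdps, farnesyl diphosphate synthase, stood at 656, 579, 565 and 464 CPM, against 768 CPM in 1x GFP (-0.49 ± 0.15 (SE, adjusted p = 0.0403)). In these genes every MOI library lay below 1x GFP. In the fatty acid arm Fads2, a desaturase of polyunsaturated chains, stood at 263, 243, 237 and 202 CPM, against 356 CPM in 1x GFP (-0.65 ± 0.14 (SE, adjusted p = 0.0153)), and Scd2 at 3694, 3425, 3215 and 2632 CPM, against 4757 CPM in 1x GFP (-0.61 ± 0.14 (SE, adjusted p = 0.0187)). Fads1, Scd1, Srebf1 and Srebf2 were lower as well, at -0.51, -0.52, -0.27 and -0.36. Insig1 did not pass at -0.38, nor did Fasn (-0.21), Mvd (-0.24) or Acaca (0.03).

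The median log2 fold change was -0.33 in the sterol arm and -0.42 in the fatty acid arm, against -0.002 over all genes. Of the other lipid genes 9 were lower and none higher, led by Aacs, a cytosolic acetoacetyl-CoA synthetase, at 115, 111, 113 and 98.5 CPM, against 148 CPM in 1x GFP (-0.49 ± 0.08 (SE, adjusted p = 0.00613)), and Abca1 at 23.7, 27.1, 27.2 and 30.8 CPM, against 42.2 CPM in 1x GFP (-0.69 ± 0.14 (SE, adjusted p = 0.0106)). Depth differs between these groups (17.9 to 22.4 M against 81.5 M counts), as does the interferon list, of which 7 of 8 were higher in the MOI libraries, and the parts of dose, depth and virus in these differences cannot be told apart. The count of 9 fell to 4 (Ebp, Scd2, Fads1, Fads2) without the MOI 30 library, to 3 (Ebp, Scd2, Fads2) without the MOI 60 library, and to 4 (Ebp, Scd2, Fads1, Fads2) with library totals as the only scaling. In these fits 7.9%, 7.91% and 8.82% of all genes were called lower. That scaling split the calls over all genes into 2157 higher and 1220 lower, against 1677 and 1692 with TMM.

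MyoD at 1x and 2x was set against GFP at 1x, so the dose label is matched for the 1x MyoD library and not for the 2x one. With MyoD, 30.5% of all 13825 genes were called, but of the 29 lipid genes Ebp was the 1 that passed, and it was lower (15.4% of all genes were called lower and 15.1% higher). Ebp stood at 77.9 and 57.1 CPM with MyoD (1x and 2x), against 104 CPM in 1x GFP (log2 fold change -0.62 ± 0.19 (SE, adjusted p = 0.036)), with 2x below 1x and both below GFP. It did not pass without the MOI 30 library (-0.62), the MOI 60 library (-0.62) or the 2x MyoD library (-0.43), nor with all 5 GFP libraries as the control (-0.10). Over all genes, the shares called lower were 11.1% without MOI 30, 11.1% without MOI 60 and 9.02% without 2x MyoD. Without the 1x MyoD library Insig1 and Fdft1 were called higher and Ebp, Fads1, Fads2 and Srebf1 lower, without MOI 120 Srebf2, Insig1 and Hsd17b7 were called higher, and without MOI 15 Hsd17b7 was. Over all genes, 21.9% were called higher and 22.5% lower without 1x MyoD, and 14.1% and 13.1% were called higher without MOI 120 and MOI 15. In the main edgeR fit, with all libraries, no gene of the 29 was called higher. There 3 were higher and 4 lower at an unadjusted p under 0.05, which 43.9% of all genes reached. DESeq2 called Srebf2, Insig1 and Hsd17b7 higher and Ebp and Fads1 lower, where it called 17.2% of all genes higher and 15.6% lower.

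The genes with the next smallest p-values pointed both ways. Hsd17b7, a keto-steroid reductase of the demethylation steps after lanosterol, stood at 251 and 252 CPM with MyoD (1x and 2x), against 195 CPM in 1x GFP (0.37 ± 0.13 (SE, adjusted p = 0.0547)). Acat2 stood at 583 and 468 CPM with MyoD (1x and 2x), against 711 CPM in 1x GFP (-0.43 ± 0.19 (SE, adjusted p = 0.122)). In both genes the MyoD libraries lay on 1 side of the GFP library. Fads1, the desaturase that acts after Fads2, stood at 617 and 482 CPM with MyoD (1x and 2x), against 727 CPM in 1x GFP (-0.40 ± 0.14 (SE, adjusted p = 0.0578)), and Fads2 at 303 and 245 CPM with MyoD (1x and 2x), against 356 CPM in 1x GFP (-0.37 ± 0.16 (SE, adjusted p = 0.111)). Both desaturases were lower in 2x than in 1x MyoD. Insig1 had a log2 fold change of 0.50 ± 0.17 (SE, adjusted p = 0.058), Srebf2 of 0.30 ± 0.11 (SE, adjusted p = 0.0719), Srebf1 of -0.23 ± 0.09 (SE, adjusted p = 0.0877) and Fdft1 of 0.35 ± 0.17 (SE, adjusted p = 0.138), none past the threshold. The median was -0.06 in the sterol arm (13 of 18 negative) and -0.15 in the fatty acid arm (6 of 8 negative), against -0.01 over all genes, of which 51.0% were negative. This lean turned with all 5 GFP libraries as the control, where the medians were 0.13 in the sterol arm (3 of 18 negative) and 0.10 in the fatty acid arm (2 of 8 negative), and 14 of the 29 genes changed sign. The sterol median was -0.10 without 1x MyoD and -0.03 without 1x Myf5, and the fatty acid median -0.24 without 1x MyoD and -0.06 without 2x MyoD.

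With MyoD, 5 of the 32 other lipid genes were higher and 7 lower. Gpam, which starts glycerolipid synthesis, stood at 58.7 and 66.2 CPM with MyoD (1x and 2x), against 34.1 CPM in 1x GFP (0.88 ± 0.11 (SE, adjusted p = 0.00272)). Ch25h stood at 4.37 and 2.36 CPM with MyoD (1x and 2x), against 12.4 CPM in 1x GFP (-1.87 ± 0.26 (SE, adjusted p = 0.00374)). Soat1 (1.20) and Insig2 (0.40) were among those that rose, and Aacs (-0.29) and Hsd17b12 (-0.28) among those that fell. Muscle markers moved with the same contrast, with 6 of 6 higher and a summed level of 712 and 2283 CPM in 1x and 2x MyoD, against 2.33 CPM in 1x GFP, and all 8 fibroblast markers were lower, summing to 14525 and 10584 CPM, against 19930 CPM. Their part in the lipid values was not tested. With all 5 GFP libraries as the control, Srebf2, Insig1, Fdft1, Hsd17b7 and Scd2 were called higher and none lower, where 21.4% of all genes were called higher.

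Myf5 against 1x GFP gave no call among the 29 genes by edgeR, and none at an unadjusted p under 0.05, where 1.18% of all genes were called and 17.4% had an unadjusted p under 0.05. DESeq2 called none, with 1 gene lower at an unadjusted p under 0.05, where it called 5.48% of all genes and 16.8% had such a p. Values leaned low, since 26 of 29 log2 fold changes were negative, as were 51.1% of all genes, with a median of -0.17 in each arm. The fatty acid median was -0.29 without 1x Myf5 and -0.07 without 2x Myf5. With all 5 GFP libraries as the control 20 of the 29 genes changed sign, so that 6 were negative, and the medians were 0.12 in the sterol arm and 0.15 in the fatty acid arm. Again none was called by edgeR, with 2 at an unadjusted p under 0.05 (6.1% of all genes were called, and 28.5% had such a p). Ebp stood at 90.1 and 71.1 CPM with Myf5 (1x and 2x), against 104 CPM in 1x GFP (-0.39 ± 0.19 (SE, adjusted p = 0.329)), Pmvk at 75.5 and 68.9 CPM with Myf5 (1x and 2x), against 91.4 CPM in 1x GFP (-0.35 ± 0.18 (SE, adjusted p = 0.339)), and Dhcr7, the last reductase of cholesterol synthesis, at 112 and 92.9 CPM with Myf5 (1x and 2x), against 129.9 CPM in 1x GFP (-0.36 ± 0.18 (SE, adjusted p = 0.348)). Each Myf5 library lay below 1x GFP in these sterol genes. Fads2 stood at 325 and 275 CPM with Myf5 (1x and 2x), against 356 CPM in 1x GFP (-0.26 ± 0.16 (SE, adjusted p = 0.446)), and Acly at 1035 and 861 CPM with Myf5 (1x and 2x), against 1108 CPM in 1x GFP (-0.24 ± 0.17 (SE, adjusted p = 0.521)). Insig1 (0.09) and Srebf2 (-0.03) were near 0 and Srebf1 was at -0.19.

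None of the 32 other lipid genes was called with Myf5 by edgeR, and 10 had an unadjusted p under 0.05, against the 17.4% of all genes given above. Insig2, the partner of INSIG1 that is not an SREBP target, stood at 86.9 and 98.9 CPM with Myf5 (1x and 2x), against 62.7 CPM in 1x GFP (0.55 ± 0.12 (SE, adjusted p = 0.0706)). Gpam stood at 44.3 and 50.2 CPM with Myf5 (1x and 2x), against 34.1 CPM in 1x GFP (0.46 ± 0.11 (SE, adjusted p = 0.0975)). The interferon list summed to 760.1 and 2499 CPM in 1x and 2x Myf5, against 219 CPM in 1x GFP, with all 8 fold changes positive and none called. Its part in the lipid values was not tested.

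MyoD against Myf5 compares the factors directly. Srebf2 was higher in MyoD, at 633 and 647 CPM with MyoD (1x and 2x), against 533 and 501 CPM with Myf5 (1x and 2x) (log2 fold change 0.33 ± 0.09 (SE, adjusted p = 0.0369)), with no overlap between the groups. It was the 1 gene of 29 called, and none was lower, where 10.7% of all genes were called higher and 8.74% lower. Insig1 was at 0.41 ± 0.14 (SE, adjusted p = 0.0701) and Srebf1 at -0.04 ± 0.07 (SE, adjusted p = 0.736). Fdft1 stood at 445 and 540.4 CPM with MyoD (1x and 2x), against 359.9 and 437 CPM with Myf5 (1x and 2x) (0.33 ± 0.13 (SE, adjusted p = 0.112)), and the 1x MyoD and 2x Myf5 libraries were close. Dhcr7 stood at 127 and 128 CPM with MyoD (1x and 2x), against 112 and 92.9 CPM with Myf5 (1x and 2x) (0.34 ± 0.15 (SE, adjusted p = 0.142)), and Lss at 379 and 410.2 CPM with MyoD (1x and 2x), against 347 and 367 CPM with Myf5 (1x and 2x) (0.17 ± 0.11 (SE, adjusted p = 0.282)). For these, as for Srebf2, the MyoD libraries lay above both Myf5 libraries. The share of all genes with such an order was not counted. The sterol genes were named for their small p-values, so their order adds no support.

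In the fatty acid arm Fads1 stood at 617 and 482 CPM with MyoD (1x and 2x), against 685 and 620.4 CPM with Myf5 (1x and 2x) (-0.23 ± 0.11 (SE, adjusted p = 0.182)), and Scd2 at 5056 and 4854 CPM with MyoD (1x and 2x), against 4646 and 4215 CPM with Myf5 (1x and 2x) (0.18 ± 0.13 (SE, adjusted p = 0.348)). The first was lower and the second higher in each MyoD library, without passing. The sterol arm's median was 0.08 and the fatty acid arm's 0.01, against -0.01 over all genes. Without 1 library the sterol median ran from 0.05 to 0.15, the highest without 1x Myf5, and the fatty acid median was 0.16 without 1x Myf5, 0.10 without 2x MyoD, -0.08 without 1x MyoD and -0.10 without 2x Myf5. The call of Srebf2 was lost without the MOI 30 (0.33), MOI 60 (0.33), 1x Myf5 (0.40), 2x Myf5 (0.29) or 2x MyoD library (0.30). In the same order of libraries, 6.3%, 6.14%, 1.33%, 3.56% and 3.5% of all genes were called higher. Without 1x MyoD, Insig1 and Fdft1 were called higher too and Ebp and Fads1 lower, and without MOI 120 Insig1 was called higher too. Over all genes, 19% were called higher and 19.3% lower without 1x MyoD, and 8.9% higher without MOI 120. With the 1x and 2x dose label as a replicate block, Srebf2, Insig1 and Fdft1 were called higher, 3 genes of 29, where 16.8% of all genes were. DESeq2 also called 3 higher, where it called 13.4% of all genes higher. Of the other lipid genes, Cpt1a, which admits fatty acids to mitochondria for oxidation, stood at 118 and 99.5 CPM with MyoD (1x and 2x), against 159 and 175 CPM with Myf5 (1x and 2x) (-0.60 ± 0.08 (SE, adjusted p = 0.0116)), and Ch25h at 4.37 and 2.36 CPM with MyoD (1x and 2x), against 7.74 and 8.04 CPM with Myf5 (1x and 2x) (-1.21 ± 0.23 (SE, adjusted p = 0.0157)). Interferon-stimulated genes were lower in MyoD for 7 of 8, a difference whose part here was not tested.

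A dose term shared by MyoD and Myf5 set 2x libraries against 1x ones. Ebp was lower at 2x, at 57.1 CPM in 2x MyoD, against 77.9 CPM in 1x MyoD, and with Myf5 71.1 CPM at 2x dose, against 90.1 CPM at 1x (-0.37 ± 0.09 (SE, adjusted p = 0.0381)). It was the 1 gene of 29 called, where 3.34% of all genes were called lower and 4.03% higher. Fdft1 stood at 540.4 CPM in 2x MyoD, against 445 CPM in 1x MyoD, and with Myf5 437 CPM at 2x dose, against 359.9 CPM at 1x (0.30 ± 0.08 (SE, adjusted p = 0.0567)). It was higher at 2x with either factor, and DESeq2 called it, where it called 4.46% of all genes higher. Tm7sf2 stood at 112 CPM in 2x MyoD, against 141 CPM in 1x MyoD, and with Myf5 103 CPM at 2x dose, against 146 CPM at 1x (-0.39 ± 0.16 (SE, adjusted p = 0.175)). All 8 fatty acid genes had negative values (median -0.21), as did 47.3% of all genes, and Fads1 (-0.23 ± 0.08 (SE, adjusted p = 0.132)) and Fads2 (-0.25 ± 0.10 (SE, adjusted p = 0.162)) had the smallest p-values of that arm. In the sterol arm 12 of 18 were negative, with a median of -0.12 that was -0.06 without 1x Myf5 and -0.07 without 2x Myf5, and Insig1 was at 0.16, Srebf1 at -0.12 and Srebf2 at -0.01.

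Among the other lipid genes Soat1 was the 1 called, higher at 252 CPM in 2x MyoD, against 163 CPM in 1x MyoD, and with Myf5 123 CPM at 2x dose, against 101 CPM at 1x (0.47 ± 0.12 (SE, adjusted p = 0.0434)), and Gpam was at 0.20 ± 0.05 (SE, adjusted p = 0.0525). At 2x all 6 muscle markers were higher and 6 of 8 fibroblast markers lower, and their part in the lipid values was not tested. The call of Ebp was lost without the MOI 30 (-0.37) or MOI 60 library (-0.37), and without 1x MyoD (-0.33), 2x MyoD (-0.33), 1x Myf5 (-0.40) or 2x Myf5 (-0.41). The share of all genes called lower was 0.966% without MOI 30, 0.943% without MOI 60, 0.0364% without 1x MyoD and 0.0292% without 2x MyoD, against 4.82% without 1x Myf5 and 5.37% without 2x Myf5. Without the MOI 120 library Fdft1 was called higher and Ebp, Tm7sf2 and Fads2 lower, where 5.01% of all genes were called higher and 4.57% lower.

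Untransduced cells against 1x GFP show these genes without virus, from 1 library each with the spread pooled from the other groups. None of the 29 was called by edgeR, where 4.94% of all genes were. At an unadjusted p under 0.05, 6 were lower and none higher (20.7% of the 29 genes), a share near the 20.9% of all genes with such a p. Of the 29 log2 fold changes 25 were negative, as were 50.7% of all genes. DESeq2 called Tm7sf2 lower, where it called 3.47% of all genes lower. Tm7sf2 stood at 81.8 CPM without virus, against 167 CPM in 1x GFP (-1.03 ± 0.30 (SE, adjusted p = 0.0952)), the lowest value of this gene in the first table. Nsdhl, a dehydrogenase of the demethylation steps after lanosterol, stood at 242 CPM without virus, against 339.5 CPM in 1x GFP (-0.49 ± 0.17 (SE, adjusted p = 0.14)), and Ebp at 67.8 CPM without virus, against 104 CPM in 1x GFP (-0.62 ± 0.22 (SE, adjusted p = 0.154)). Scd1 stood at 676 CPM without virus, against 925 CPM in 1x GFP (-0.45 ± 0.19 (SE, adjusted p = 0.216)), and Acly at 845 CPM without virus, against 1108 CPM in 1x GFP (-0.39 ± 0.20 (SE, adjusted p = 0.324)). Fasn (0.16), Lss (0.12), Elovl6 (0.09) and Acaca (0.07) were the 4 positive values.

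Insig1 was at -0.18, Srebf2 at -0.11 and Srebf1 at -0.06. The sterol arm's median was -0.30 and the fatty acid arm's -0.20. With all 5 GFP libraries as the control 14 of the 29 genes changed sign, so that 11 were negative, and the medians were -0.02 in the sterol arm and 0.11 in the fatty acid arm. None was called by edgeR, with 1 at an unadjusted p under 0.05 (8.35% of all genes were called, and 29.8% had such a p). None of the other 32 lipid genes was called by edgeR either, with 6 at an unadjusted p under 0.05. Hsd17b12, a ketoacyl-CoA reductase of fatty acid elongation, stood at 215 CPM without virus, against 266 CPM in 1x GFP (-0.31 ± 0.10 (SE, adjusted p = 0.114)), and Acss2 at 96.7 CPM without virus, against 162 CPM in 1x GFP (-0.74 ± 0.25 (SE, adjusted p = 0.138)).

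**Figure D3:**
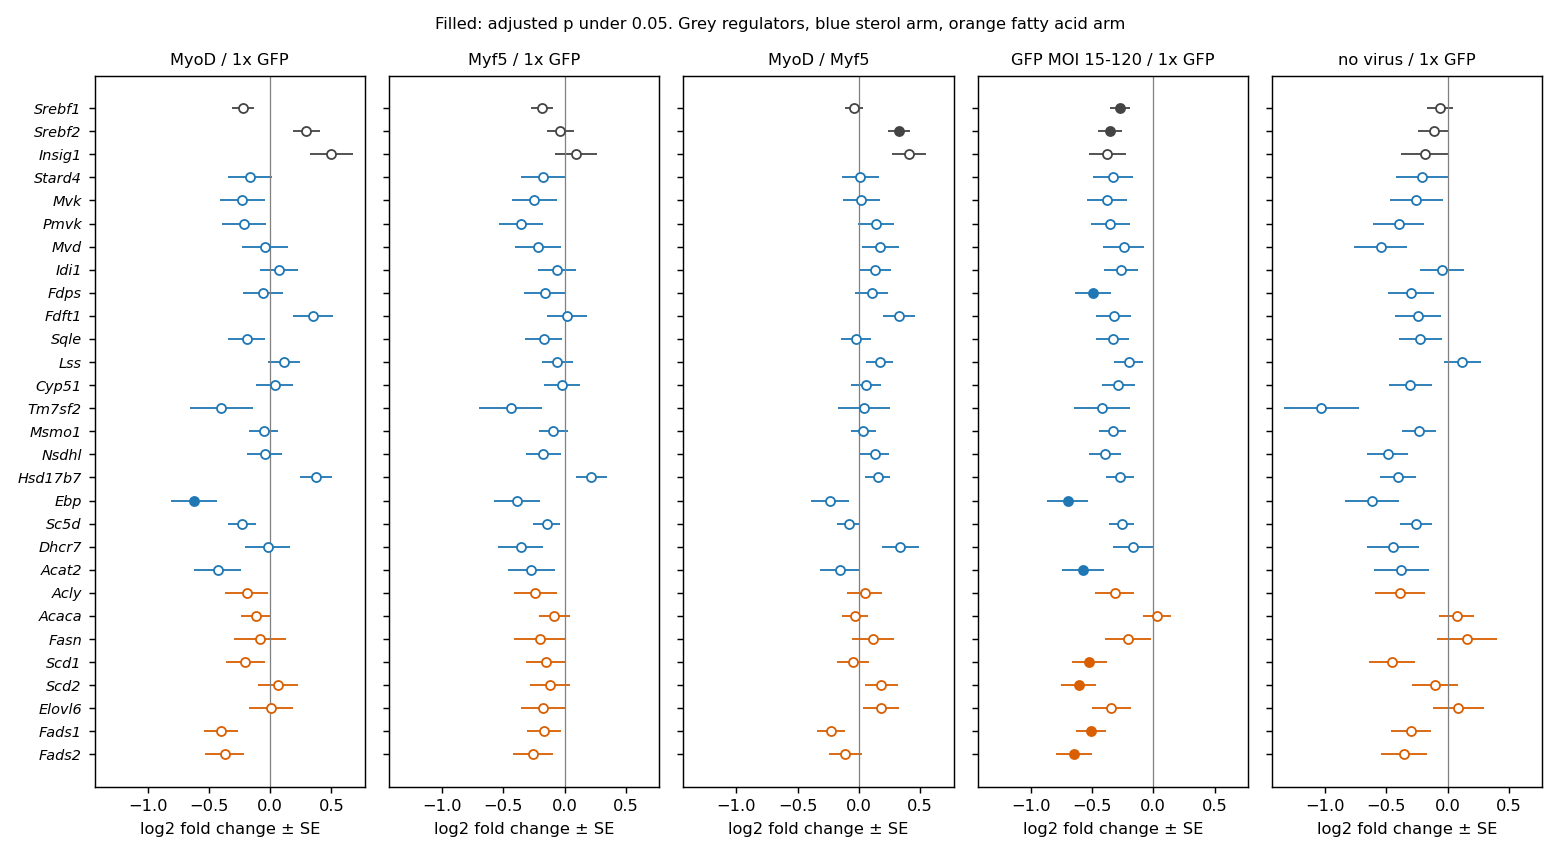
Log2 fold change (horizontal axes) of the 29 genes in 5 comparisons of the first table, with bars of 1 SE; filled points have an adjusted p under 0.05. Filled points are 1 in MyoD over 1x GFP (Ebp), none in Myf5 over 1x GFP, 1 in MyoD over Myf5 (Srebf2), 9 in GFP MOI 15 to 120 over 1x GFP and none in no virus over 1x GFP.

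Chimera against second-batch MyoD has 1 library each, so there is no replicate check and no test, and intervals cover counting error only. Lipid synthesis transcripts were lower in Chimera as a group. Of the 29 genes 23 were lower past 1.5-fold and none higher, where 6.93% of 13412 genes with at least 50 counts were lower past 1.5-fold and 7.14% higher, and all 29 log2 ratios were negative. The sterol arm held 16 of 18 past 1.5-fold (median log2 ratio -1.07), the fatty acid arm 5 of 8 (median -0.71) and the regulators 2 of 3, while the median over all genes was -0.02. Summed over the arms, the level was 2462 CPM in Chimera, against 5033 CPM in second-batch MyoD for the sterol genes, and 3629 CPM, against 5972 CPM for the fatty acid genes.

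The largest sterol differences were in Mvd, Dhcr7 and Lss. Mvd stood at 97.2 CPM in Chimera, against 280.3 CPM in second-batch MyoD (ratio 0.347, 95% counting interval 0.331 to 0.363). Dhcr7 stood at 40.3 CPM in Chimera, against 111 CPM in second-batch MyoD (ratio 0.364, 95% counting interval 0.338 to 0.392). Lss, which closes the sterol rings, stood at 113 CPM in Chimera, against 302 CPM in second-batch MyoD (ratio 0.373, 95% counting interval 0.357 to 0.390). These genes act before squalene is made, at the last reduction and at ring closure. Insig1 had a log2 ratio of -1.26, Srebf1 of -0.68 and Srebf2 of -0.53, so the feedback gene differed more than the genes of the factors. Msmo1 (-1.25), Idi1 (-1.20), Stard4 (-1.17) and Cyp51 (-1.15), the lanosterol demethylase, followed, and Fdft1 (-0.42) and Ebp (-0.36) were the 2 sterol genes inside 1.5-fold. In the fatty acid arm Fasn stood at 373 CPM in Chimera, against 784 CPM in second-batch MyoD (ratio 0.475, 95% counting interval 0.463 to 0.487). Scd1 stood at 264 CPM in Chimera, against 520.0 CPM in second-batch MyoD (ratio 0.508, 95% counting interval 0.493 to 0.523). Acaca (-0.35), Fads1 (-0.29) and Fads2 (-0.57) stayed inside 1.5-fold. Those nearest the threshold were Fads2 (ratio 0.672) just inside it and Srebf1 (ratio 0.625) just past it.

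Abca1, the cholesterol exporter, and Mylip were higher in Chimera. Abca1 stood at 96.7 CPM in Chimera, against 19.9 CPM in second-batch MyoD (ratio 4.85, 95% counting interval 4.39 to 5.36). Mylip, which encodes a ligase that marks lipoprotein receptors for degradation, stood at 95.03 CPM in Chimera, against 37.3 CPM in second-batch MyoD (ratio 2.55, 95% counting interval 2.36 to 2.76). Both, with Cpt1a (ratio 1.53), were the 3 of 30 other lipid genes higher past 1.5-fold, and 8 were lower, among them Acss2 (0.512), Soat1 (0.660) and Lpcat3 (0.648). Ch25h stood at 5.18 CPM in Chimera, against 6.33 CPM in second-batch MyoD (ratio 0.818, 95% counting interval 0.642 to 1.04), an interval that includes 1. Abca1 and Mylip are known targets of the oxysterol-sensing LXR receptors, and so are Lpcat3 and Srebf1, which were lower. Any part of LXR in these ratios was not tested. All 8 interferon-stimulated genes were higher past 1.5-fold, summing to 2163 CPM in Chimera, against 1131 CPM in second-batch MyoD. All 6 muscle markers were lower past 1.5-fold, summing to 841 CPM, against 2428 CPM, and 3 of 8 fibroblast markers were higher. The part of these in the lipid ratios was not tested.

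**Figure D4:**
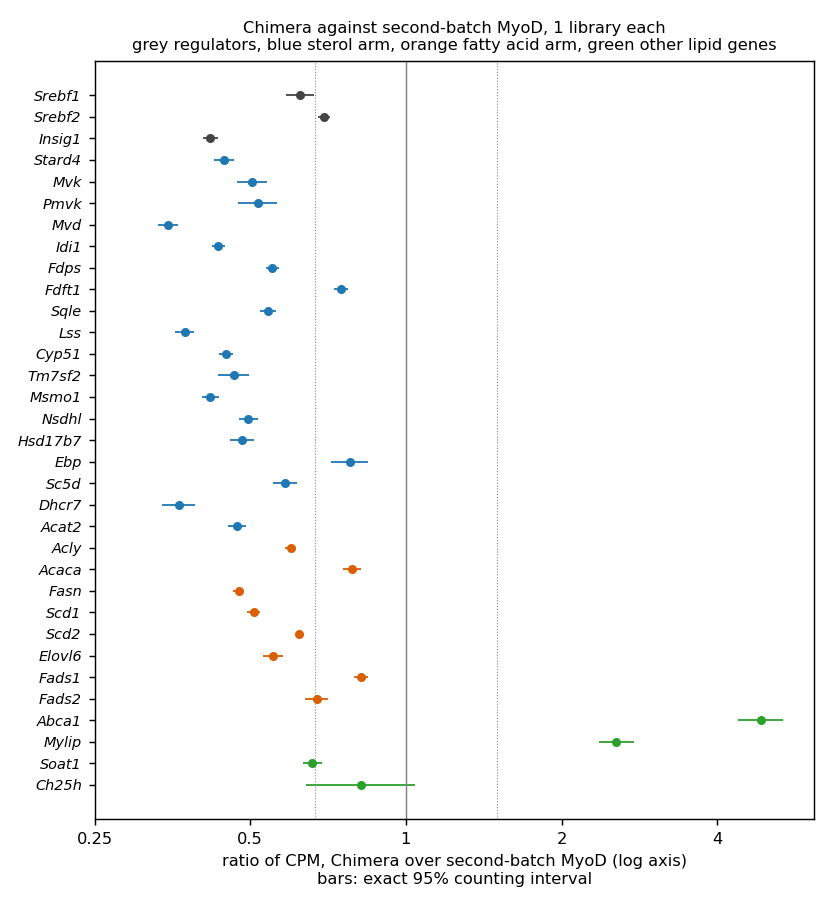
Ratio of CPM in Chimera over second-batch MyoD (log axis) for the 29 genes and 4 other lipid genes, 1 library each, with exact 95% counting intervals; dotted lines mark 1.5-fold. All 29 points of the members lie below 1, Abca1 and Mylip lie above 1.5-fold, and the interval of Ch25h spans 1.

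The 2 MyoD virus batches at 1x also stood apart, across tables that were made separately. In second-batch MyoD all 29 genes had a lower CPM than in 1x MyoD of the first table. The log2 ratios ran from -0.97 (Fads2) to -0.13 (Fdft1). The share of all genes lower in this ratio was not computed. A shift between the tables and one particular to these genes cannot be told apart. The interferon list summed to 1131 CPM in second-batch MyoD, against 308 CPM in 1x MyoD. Mitochondrial genes take 4.18% of the second-batch MyoD counts and none of the first table's, so these levels are set side by side with no test. Chimera is therefore compared with second-batch MyoD alone.

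The summed level of the sterol arm in the first table ran from 4577 CPM at MOI 120 to 6749.7 CPM in 1x GFP, and that of the fatty acid arm from 5894 CPM at MOI 120 to 9590.0 CPM in 1x MyoD.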

How the data were processed

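Poly(A) RNA libraries of lentivirally transduced mouse embryonic fibroblasts were read from 2 gene tables. Per the submitters' processing notes, CASAVA 1.8.2, TopHat2 2.0.8 and the build mm9 were used, while counting tool, annotation and strand setting are not given in the sources used here. One table holds expected counts as deposited by the authors, not whole for 1982 to 2767 genes per library (tolerance 1e-06), which were rounded for tests. The other table (Chimera and second-batch MyoD) holds whole-number counts as deposited by the authors. CPM were computed from the counts as deposited, over the total of each library. Counts of mitochondrial genes are 0 throughout the larger table and 4.05% and 4.18% of the libraries of the other, and each file was fitted alone. Symbols came from GENCODE vM21 (32610 of 37287 IDs), as did exon lengths, and promoters came from RefSeq (GRCm38.p6). These are of another build than mm9, so no position comes from the files.

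In R 4.3.3, edgeR 4.0.16 (TMM, quasi-likelihood test, two-sided, Benjamini-Hochberg over all genes) was fitted to genes that reached a CPM of 1 in 2 or more libraries. The 10 libraries of the larger table form 1 fit with 5 groups (5 residual degrees of freedom, biological coefficient of variation 0.106), in which groups of 1 library are assumed to vary like the others. The dose fit has 4 and the MOI fit 2 residual degrees of freedom. SE are the log2 value over the square root of its F statistic. DESeq2 1.42.0 was an alternative, as were other size factors, filters and controls and leaving out libraries. Chimera ratios carry exact 95% binomial intervals, with at least 50 counts over both libraries and a prior count of 2 for log2 ratios. PCR reads without molecular identifiers are not independent molecules, so intervals cover counting error only. The script was run on simulated counts. For the group fit these had less spread between libraries than estimated here, so no error rate is taken from that run. Same-group libraries differed by more than sampling noise (chi-square over its degrees of freedom, 1.97 to 79.2) and each counts as 1 sample.

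The members and lists were chosen with earlier results of these data known. Named genes are the regulators, the 3 sterol and 2 fatty acid genes with the smallest p (for Chimera the largest log2 ratio), the 2 other lipid genes likewise and any member called.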

Additional observations from a re-analysis of the deposited data

Results flagged for a closer look

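For 6 of the 29 genes the ratio of 2x over 1x dose had opposite signs with MyoD and with Myf5, from 1 library at each dose, so the difference between the factors was not tested. In log2 units Srebf2 was at 0.03 (0.0313) with MyoD and -0.09 with Myf5, Idi1 at 0.03 (0.0261) with MyoD and -0.01 with Myf5, and Hsd17b7 at 0.01 (0.00505) with MyoD and -0.01 with Myf5. Cyp51 was at -0.03 (-0.0313) with MyoD and 0.02 with Myf5, and Msmo1 at -0.02 (-0.0178) with MyoD and 0.01 with Myf5. Dhcr7 was at 0.01 (0.00824) with MyoD and -0.27 with Myf5. With the exception of Srebf2 and Dhcr7 in Myf5, these values lie within 0.04 of 0. No gene of the 29 had a library in the MOI series that stood apart from the others by Dixon's criterion.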

How the results depend on the processing

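Of the 29 genes, the numbers called changed as follows. In MyoD against 1x GFP, 1 was higher with the size factors of DESeq2 in edgeR and 1 with a CPM of at least 5, 3 higher and 2 lower by DESeq2, and 5 higher and 0 lower with all 5 GFP libraries as control. Without 1 library at a time, 0 to 3 were higher and 0 to 4 lower. In MyoD against Myf5, DESeq2 and the replicate block on the 1x and 2x dose label each called 3 higher, and without 1 library 0 to 3 were higher and 0 to 2 lower. In untransduced cells DESeq2 called 1 lower. In the MOI libraries against 1x GFP 4 were lower with library totals alone, a scaling chosen after the data were seen, and 3 to 11 without 1 library. For 2x against 1x dose, 1 was higher by DESeq2 and 1 with no filter on low counts, and without 1 library 0 to 1 were higher and 0 to 3 lower. For the MOI slope 18 to 29 were lower without 1 library, the fewest without MOI 120. No other alternative moved these counts over the 29 genes by over 1.5 times.

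Counts over all genes moved more. Without 1 library, MyoD against 1x GFP had 1383 to 3010 genes higher and 1236 to 3093 lower (2091 and 2132 with all libraries), the fewest without 2x MyoD and the most without 1x MyoD. Myf5 against 1x GFP had 45 to 557 higher and 1 to 363 lower (all libraries 142 and 21), with low counts without any 1 MOI library or 2x Myf5 and high counts without 1x MyoD, 2x MyoD or 1x Myf5. MyoD against Myf5 had 184 to 2614 higher and 165 to 2652 lower (all libraries 1474 and 1208), low without MOI 30, MOI 60, either Myf5 library or 2x MyoD and high without 1x MyoD. Untransduced cells had 263 to 871 higher and 101 to 600 lower (all libraries 466 and 217), low without MOI 30 or MOI 60 and high without either MyoD library. The MOI libraries against 1x GFP had 1079 to 2284 higher and 1088 to 2391 lower (all libraries 1677 and 1692), low without MOI 30 or MOI 60. The dose fit had 33 to 997 higher and 4 to 742 lower (all libraries 557 and 462), low without either MyoD library, MOI 30 or MOI 60 and high without either Myf5 library. The slope fit had 225 to 802 higher and 113 to 750 lower (all libraries 544 and 458), low without MOI 15, MOI 30 or MOI 120 and high without MOI 60. DESeq2 called 554 higher and 204 lower in Myf5, 772 and 480 in untransduced cells, and 288 and 198 for the slope. With all 5 GFP libraries 527 were higher and 316 lower in Myf5 and 806 and 348 in untransduced cells. With no filter 220 were higher and 43 lower in Myf5, and the replicate block called 2327 higher and 2331 lower in MyoD against Myf5.

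With all 5 GFP libraries as control, 14 of the 29 genes turned from negative to positive in MyoD, 20 in Myf5 and 14 in untransduced cells. Among the genes named by the rule, Acat2 (0.0107) and Fads2 (0.12) turned in MyoD, Acly (0.00758), Ebp (0.14), Fads2 (0.23), Srebf1 (0.025) and Srebf2 (0.24) in Myf5, and Insig1 (0.11), Srebf1 (0.15) and Srebf2 (0.16) in untransduced cells. Without 1 library, Srebf2 ran from -0.080 to 0.0058 in Myf5 against 1x GFP, positive without 2x Myf5, and from -0.080 to 0.084 for dose, positive without 1x or 2x Myf5. Srebf1 ran from -0.10 to 0.045 in MyoD against Myf5, positive without 1x Myf5 or 2x MyoD. The cause was not tested. The dose labels are not replicate numbers; the 2x over 1x ratios of MyoD and Myf5 had a Pearson correlation of 0.40 across 13825 genes, which are not independent replicates. The 1x GFP library has no other of its kind, so no value without it could be given. Depth limits these genes little: the lowest count of any of the 29 in a library was 825 (Pmvk).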
